A study of Homo sapiens with 6 samples.

Results

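The 48 genes described here encode the subunits of the proteasome, its activators and inhibitor, and the chaperones that assemble it. The rule takes gene names and types and no measured value, but this group was picked with earlier results of these data known. Of the 58825 genes in the deposited table, 50 had a symbol made of PSM, a letter from A to G and a number, and 48 of these were typed as protein-coding, each under 1 symbol. PSMD12P and PSMA3P, the other 2, were of a pseudogene type and were left out. Of the 48 genes, 46 had enough counts to be tested. PSMA8, an alpha subunit of the testis, had 0 counts in all 6 libraries, and PSMB11, a beta subunit of the thymus, had 4 counts, all in CMR replicate 2.

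The study compared PANC-1 cells, a human cell line derived from a pancreatic ductal carcinoma, that had been exposed to 8 µM CMR for 48 h (3 libraries) with PANC-1 cells labelled as control (3 libraries). All 6 libraries come from the 1 cell line, grown in the same medium with serum, and the labels name no genetic change in either group. The labels give neither the full name of CMR nor what the control cells received, and nothing in them ties a library to a culture of its own. What the p-values below weigh is thus the spread between libraries, part or all of which may be technical.

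Library totals ran from 66460535 to 70129221 counts with CMR and from 51147268 to 63811430 in the control, and across genes the libraries of a group correlated at 0.985 to 0.989, against 0.943 to 0.963 between groups. The 7 markers listed for PANC-1 were detected in every library, with a summed level of 340 to 542 FPKM (a fragment count per gene, scaled for the length of the gene and the depth of the library) with CMR and 1231 to 1348 in the control; whether this difference bears on the proteasome genes was not tested. Markers of other cell types were near 0: the endothelial, acinar and adipocyte lists summed to at most 0.164 FPKM in any library, the endocrine genes INS, GCG and SST had no count, and of the leukocyte list CD3E had no count and CD68 made up almost the whole sum of 24.3 to 32.9 FPKM.

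The proteasome is the barrel-shaped protease that degrades proteins tagged with ubiquitin. Its core particle stacks rings of alpha subunits (PSMA), which form the gate, around rings of beta subunits (PSMB), some of which carry the catalytic sites. The regulatory particle caps the core: its base holds a ring of ATPases (PSMC) that unfold the substrate, and its lid (PSMD) removes the ubiquitin chain. Tumour cells make proteins at a high rate and lean on this machinery, and the transcription factor NFE2L1 is known to raise the genes of core and cap together when proteasome activity is short.

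In the control cells the levels of these genes spread over several orders of magnitude, and 1 gene stood far above the others. PSMC4, an ATPase of the base (ENSG00000013275, chromosome 19, 39971005 to 39981441, plus strand, GRCh38), had a level of 761 ± 8.37 FPKM in the control (SD, n = 3), which was 7.95 times that of the next gene, PSMB1, at 95.7 ± 2.45. It ranked 27th of all genes in the table in the control and 14th with CMR. The lengths behind the deposited FPKM followed the summed exon length of each gene, within 5% of 1 common ratio for 37 of 47 genes. With the count divided instead by the length of the principal transcript, an alternative added after seeing the data, PSMC4 was still 4.99 times the next gene. Its partners in the same ATPase ring lay between 90.6 ± 2.16 FPKM for PSMC3 and 11.7 ± 1.17 FPKM for PSMC6, although the ring holds the ATPases in equal numbers.

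**Figure D1:**
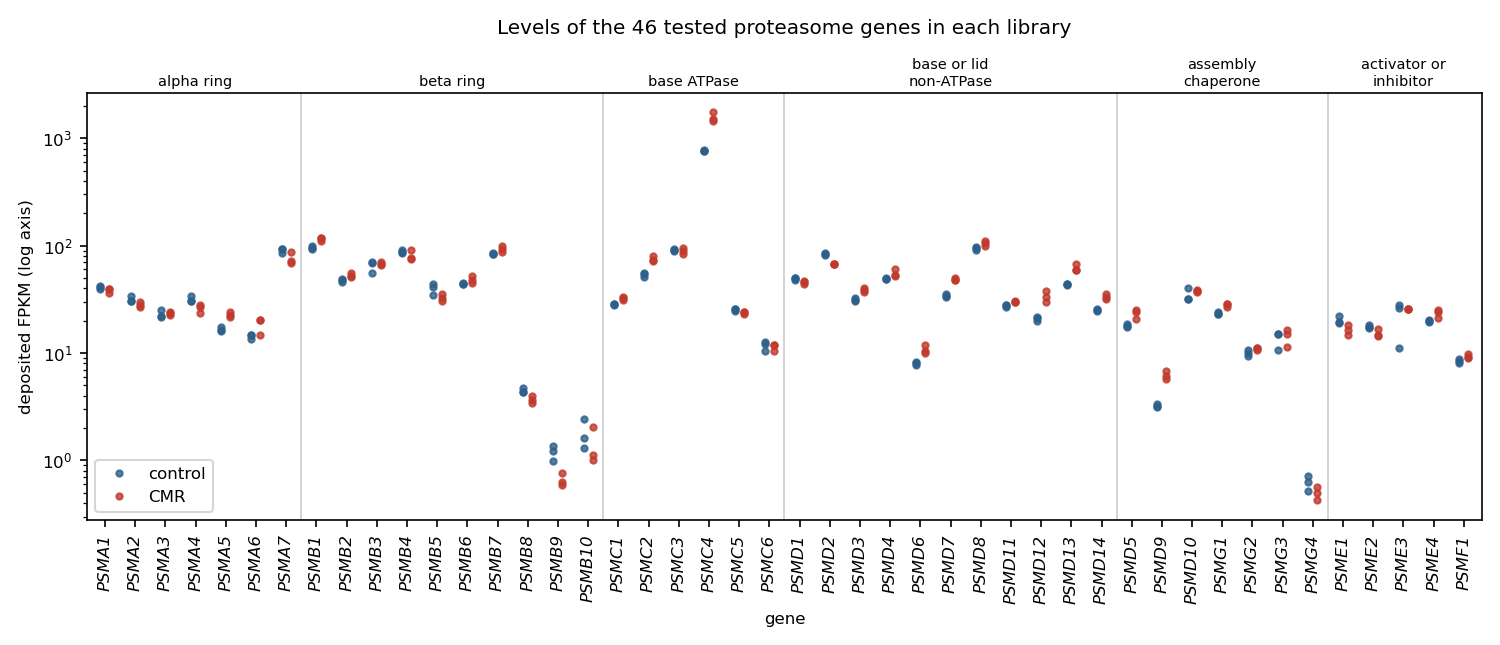
Deposited FPKM (vertical log axis) of the 46 tested proteasome genes (horizontal axis, grouped by role) in each of the 3 control and 3 CMR libraries, 1 point per library. PSMC4 lies above all other genes in both groups, and PSMB8, PSMB9, PSMB10, PSMD9, PSMF1 and PSMG4 lie below 10 FPKM in every library.

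The 14 subunits of the constitutive core, which enter the particle in equal numbers, were less spread. Within a library the highest of them in FPKM was 5.81 to 7.46 times the lowest. The upper end was held by PSMB1, PSMA7 (90.2 ± 3.41 FPKM in the control), PSMB4 (87.8 ± 2.57) and PSMB7 (84.5 ± 1.20), and the lower end by PSMA6 (14.3 ± 0.696) and PSMA5 (16.6 ± 0.594). Neighbours in that order often lay within each other's spread: PSMA7 and PSMB4, for example, differed by less than 1 SD of either. The order also depends on the length used. Per kb of the principal transcript, PSMA6 ranked 15th of the 48 genes in the control, against 36th in FPKM. PSMA5 ranked 36th, against 35th in FPKM. The least abundant of the tested genes were the immunoproteasome subunits PSMB8 (4.48 ± 0.249 FPKM), PSMB10 (1.79 ± 0.574) and PSMB9 (1.19 ± 0.193), the chaperone PSMD9 (3.23 ± 0.102) and the chaperone PSMG4 (0.622 ± 0.0964).

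Several genes in a wide window around PSMC4 were also abundant. Within 600 kb on each side of its start, 39 genes were tested, PSMC4 included, and their median level in the control was 6.96 FPKM, against 1.96 over all tested genes. Of the 39, 13 (33.3%) lay above the 90th percentile of all tested genes, 20.4 FPKM. They included PAF1, a subunit of a transcription elongation complex, at 590 ± 1.20 FPKM, and the elongation factor SUPT5H at 187 ± 0.210 FPKM. Most of the 13 start at lower coordinates than PSMC4. At higher coordinates, ZNF780A (22.5 ± 8.04 FPKM) and AKT2 (69.0 ± 3.75) lay above that level. The nearest tested genes there, ZNF546 (3.27 ± 2.43) and AC007842 (6.96 ± 0.967), did not. With CMR, 13 of the 39 were called higher and 5 lower, against 20.5 and 18.1% of all tested genes and 32.5 and 24.1% of those with a mean of at least 5 FPKM. Calls thus went in both directions: SUPT5H (log2 fold change 0.94) and the kinase MAP3K10 (1.19) were called higher, the kinase AKT2 (-0.40) lower, and PAF1 (0.16) was not called. Gene copy number was not measured here, and its part in these levels was not tested.

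**Figure D2:**
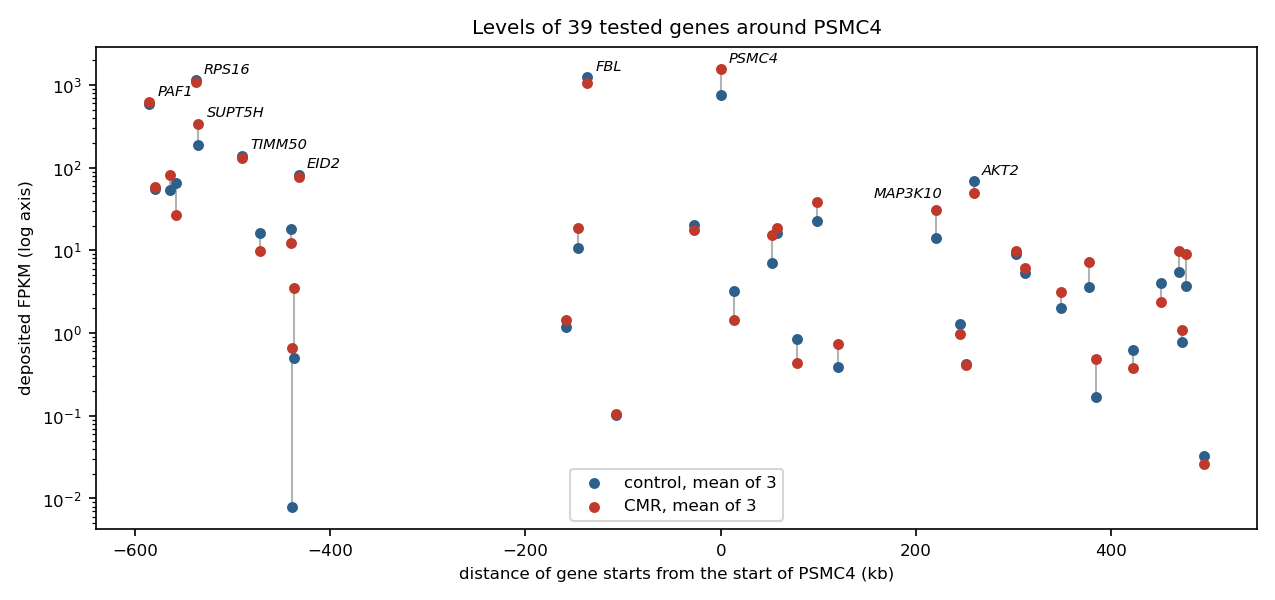
Mean FPKM of 3 libraries (vertical log axis) for the 39 tested genes within 600 kb of the start of PSMC4, by the distance between gene starts (horizontal axis, kb). Grey lines join the control and CMR means of a gene. PSMC4 rose from 761 to 1569 FPKM. Of the other labelled genes, SUPT5H and MAP3K10 were called higher, AKT2 was called lower, and PAF1, RPS16, FBL, TIMM50 and EID2 were not called.

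With CMR the proteasome genes took a larger share of the library, and most of the added counts were those of PSMC4. The 48 genes together held 1.17, 1.13 and 1.25% of the counts of the CMR libraries and 0.887, 0.885 and 0.884% of those of the control libraries. PSMC4 alone held 0.430, 0.412 and 0.497% with CMR against 0.214, 0.218 and 0.215% in the control, and so 36.5 to 39.8% of the proteasome counts with CMR against 24.2 to 24.6%. Without PSMC4 the share was 0.738, 0.716 and 0.751% with CMR and 0.673, 0.667 and 0.669% in the control, groups that did not overlap. The constitutive core held 0.244, 0.223 and 0.233% with CMR and 0.227, 0.232 and 0.225% in the control, and there the groups overlapped. In bulk RNA such as this, a change in the share of cells that express a gene and a change in RNA per cell cannot be told apart.

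Each gene was compared with edgeR's quasi-likelihood test on the counts, and a gene was called at a Benjamini-Hochberg adjusted p under 0.05 over the 19200 genes tested. Of the 46 tested proteasome genes, 18 were called higher with CMR and 2 lower, and 26 were not called. Over all tested genes 20.5% were called higher and 18.1% lower, 38.6% in either direction; among the 6477 tested genes that averaged 5 FPKM or more, nearer to the level of most proteasome genes, these shares were 32.5%, 24.1% and 56.7%. The proteasome genes thus stood at 39.1% called higher, near that of abundant genes, and at 4.35% called lower. Their median log2 fold change was 0.20, against -0.01 over all tested genes and 0.06 over the abundant ones, and the single values ran from -0.77 to 1.12. PSMC4 and PSMD9 were the 2 genes called with a change of more than 2-fold, and PSMD12, PSMD13, PSMD7 and PSMB9 were the other 4 beyond 1.5-fold.

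Counting instead the genes whose libraries did not overlap between groups, on a scale of normalised CPM (counts scaled to the library size and its composition), 25 of 46 were higher with CMR in all 3 libraries and 5 lower, against 27.3% and 26.6% of all tested genes (53.9% in either direction) and 38.2% and 30.9% (69.1%) of the abundant ones. All 20 called genes were among these 30. With 1 library left out in turn, the number called lower, 2 with all libraries, became 3 without CMR replicate 1, 1 without CMR replicate 3 or control replicate 1, and 0 by edgeR without CMR replicate 2 or control replicate 2 or 3, where 2, 3 and 2 had an unadjusted p under 0.05.

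Several of these genes share their span with another expressed gene, whose reads they could hold since strandedness is not given in the sources used here. On the opposite strand lie PSMA3-AS1 over PSMA3 (35.2% of its count), FTSJ3 over PSMC5 (76.0%), EMC9 over PSME1 (28.5%), RNF31 and AL136295 over PSME2 (15.4 and 16.9%), BECN1 over PSME3 (30.7%), and SLC22A23 and TUBB2B over PSMG4 (86.8 and 276%). PSMB9 likewise lies over PSMB8, with 21.3% of its count. These percentages compare the whole counts of the genes, and how many reads fell in the shared stretches was not measured. The values of these genes are thus uncertain by an amount that is not known here. The further overlaps of PSMA6, PSMB9, PSMB10, PSMC2 and PSMG2 are given with their values.

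**Figure D3:**
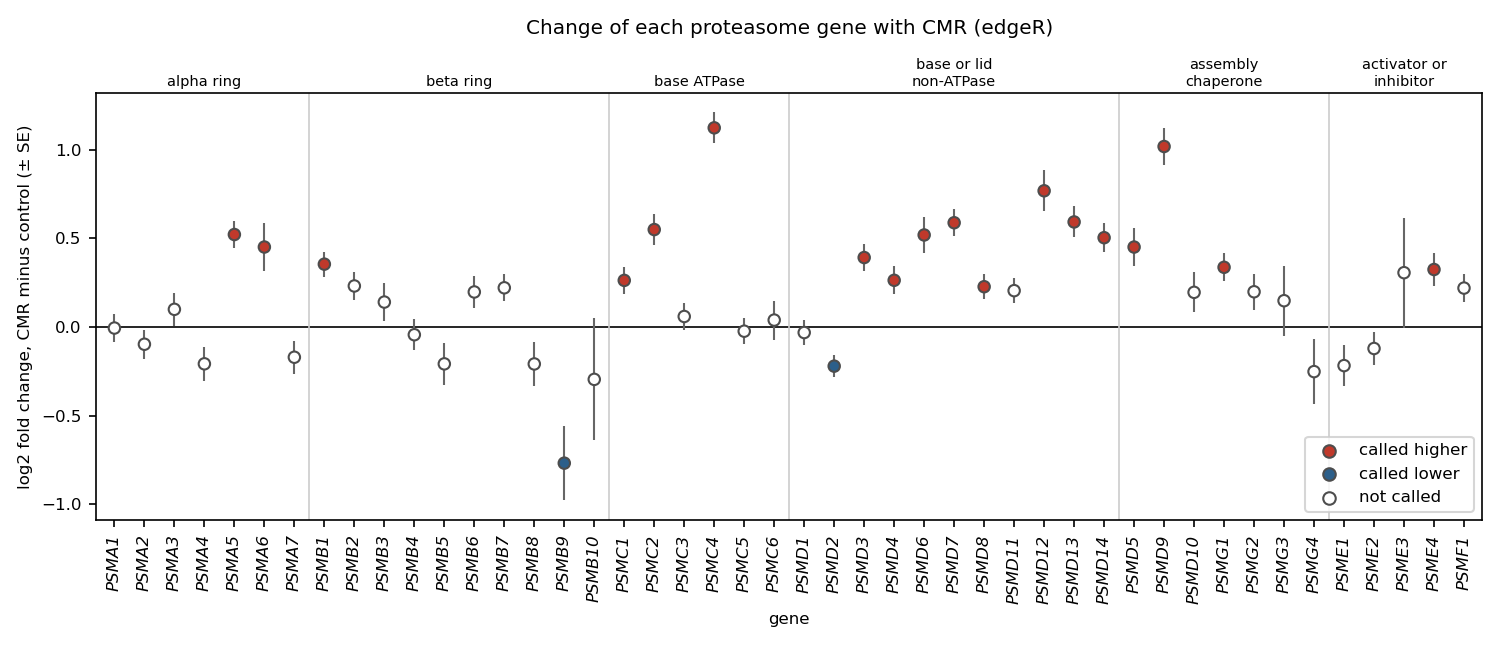
Log2 fold change, CMR minus control, with its standard error (vertical axis) for the 46 tested proteasome genes by role (horizontal axis), from edgeR. Filled points are called at an adjusted p under 0.05; 10 of the 18 genes called higher carry a PSMD symbol, and PSMB9 and PSMD2 are the 2 called lower.

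The calls differed in number between the parts of the particle. Of the 20 genes of base and lid under the letters C and D, chaperones included, 13 were called higher and 1 lower, with a median log2 fold change of 0.33. Of the 17 tested core genes under the letters A and B, 3 were called higher and 1 lower, with a median of -0.01. These 17 include the 3 immunoproteasome genes, and the 14 constitutive core genes alone had 3 called higher and a median of 0.12. The 9 base genes, without chaperones, had 4 called higher and 1 lower, with a median of 0.06, not above that of the constitutive core. Over all tested genes 20.5% were called higher and 18.1% lower, and over the abundant ones 32.5 and 24.1%. The lid had the highest share of calls: 7 of its 8 genes were called higher (87.5%), all 8 were higher in every CMR library than in any control library, and the median was 0.51, with values from 0.20 to 0.77. The difference in these counts between lid and core was not tested.

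The ratio of the median FPKM of the lid genes to that of the 14 constitutive core genes was computed within each library. It was not among the planned comparisons. The ratio was 0.771, 0.841 and 0.935 with CMR and 0.641, 0.689 and 0.708 in the control. All 3 CMR libraries lay above all control libraries. The lid medians moved from 28.6, 29.3 and 30.3 FPKM in the control to 35.4, 35.5 and 39.0 with CMR, whereas the core medians were 44.6, 42.6 and 42.8 in the control and 45.9, 42.2 and 41.7 with CMR. The same ratio for the 9 base genes was 1.33, 1.27 and 1.26 with CMR and 1.11, 1.17 and 1.17 in the control, which did not overlap either. The base median was the level of PSMD1 in control replicates 1 and 3 and of PSMD4 in the other libraries. The median log2 fold change of the base genes was 0.06, against 0.12 for the constitutive core. The base ratio thus does not show a rise of the base genes as a set over the core.

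**Figure D4:**
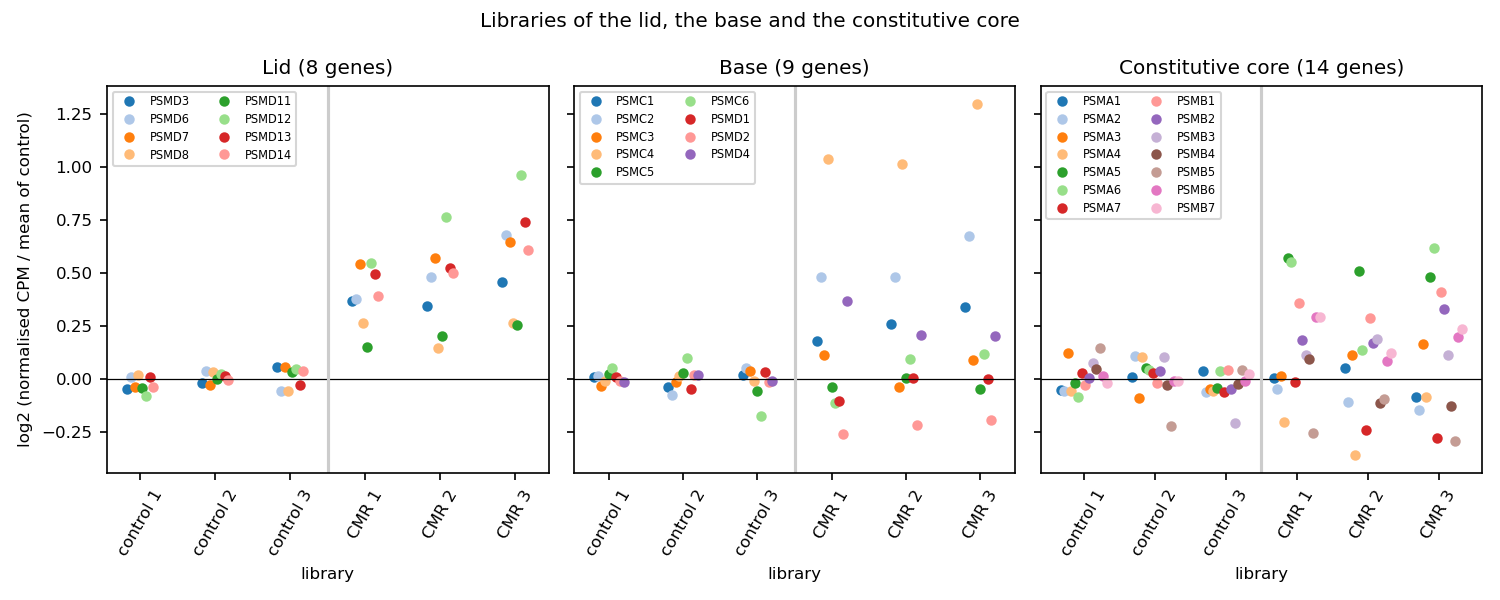
Log2 of the normalised CPM over the gene's control mean (vertical axis) in each library (horizontal axis) for the 8 lid, 9 base and 14 constitutive core genes, 1 point per gene and library. All lid points of the CMR libraries lie above 0, while base and core points lie on both sides of it.

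Among the lid genes the change was largest for PSMD12 (ENSG00000197170, chromosome 17, 67337916 to 67366605, minus strand, GRCh38), a scaffold subunit of the horseshoe that holds the lid together. It had 189.7, 220.1 and 252 normalised CPM with CMR and 123, 132 and 134 in the control. All 3 CMR libraries were above all control libraries, with CMR replicate 1 the lowest of them. The change was 1.70-fold, a change of 0.77 ± 0.12 on the log2 scale (SE; edgeR adjusted p = 0.00212). PSMD13, another scaffold subunit, had 309, 316 and 367 with CMR and 221, 221 and 215 in the control, and rose by 0.59 ± 0.09 on the log2 scale (edgeR adjusted p = 0.00195). Its control libraries lay close together, at 219 ± 3.43 (SD, n = 3), and all CMR libraries were above them.

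The lid's deubiquitinase pair rose as well. PSMD7, the inactive partner of that pair, had 156, 159.9 and 168 normalised CPM with CMR and 105, 105 and 112 in the control, without overlap, a change of 0.59 ± 0.08 on the log2 scale (SE; edgeR adjusted p = 0.00121). PSMD14, the metalloprotease that cuts the ubiquitin chain from the substrate, was at 302 ± 22.4 with CMR and 213 ± 5.67 in the control (SD, n = 3 each), a change of 0.50 ± 0.08 on the log2 scale (SE; edgeR adjusted p = 0.0028). The 2 changes differed by about the standard error of either.

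The remaining 4 lid genes had log2 fold changes from 0.52 down to 0.20. PSMD6 was at 121 ± 13.1 with CMR and 84.4 ± 2.88 in the control (0.52 ± 0.10, edgeR adjusted p = 0.00625), and PSMD3 at 235 ± 9.96 and 179 ± 6.55 (0.39 ± 0.07, edgeR adjusted p = 0.00571). PSMD8 had the smallest called change of the lid, 397 ± 18.6 against 339.6 ± 10.9 (0.23 ± 0.07, edgeR adjusted p = 0.0418). Its call held under 2 of 15 alternative settings. Without CMR replicate 1 or 3, or control replicate 1, 2 or 3, its adjusted p was 0.07, 0.0838, 0.113, 0.1 and 0.144. PSMD11, the subunit that clamps the lid to the core, had 252, 262 and 271 with CMR and 221, 228 and 233 in the control, higher in all 3 CMR libraries but not called (0.20 ± 0.07, edgeR adjusted p = 0.0562); without CMR replicate 1 it passed, at 0.0352.

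The non-ATPase subunits of the base went in different directions. PSMD2 (ENSG00000175166, chromosome 3, 184299198 to 184309050, plus strand, GRCh38), the scaffold on which shuttle receptors and the deubiquitinase USP14 dock, had 401, 413 and 419 normalised CPM with CMR and 477, 485 and 474 in the control. All CMR libraries were below all control libraries, and PSMD2 was called lower (-0.22 ± 0.06, edgeR adjusted p = 0.0297), the 1 gene of the regulatory particle to be so. The call was lost without CMR replicate 2 (adjusted p 0.0784) and without control replicate 1, 2 or 3 (0.101, 0.117 and 0.0847). PSMD1, the matching scaffold of the base, had 276, 297 and 296 with CMR and 299, 287 and 303 in the control, overlapping groups with a log2 fold change of -0.03 ± 0.07. PSMD4, a ubiquitin receptor, was at 206 ± 13.6 with CMR and 172 ± 2.39 in the control and was called higher (0.26 ± 0.08, edgeR adjusted p = 0.0336), with an adjusted p of 0.0585 without CMR replicate 2 and of 0.113, 0.093 and 0.103 without control replicate 1, 2 or 3. This call held under 5 of 15 alternative settings.

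Of the 6 ATPases of the base, 3 were called higher and 3 were not called. PSMC4, already the most abundant proteasome gene, had 4325, 4248 and 5179 normalised CPM with CMR and 2096, 2127 and 2092 in the control. The control libraries differed by little from their mean of 2105 ± 18.8, and all 3 CMR libraries were far above them. The change was 2.18-fold, a change of 1.12 ± 0.09 on the log2 scale (SE; edgeR adjusted p = 1.8e-04), and in FPKM PSMC4 moved from 7.66 to 7.96 times the next proteasome gene in the control libraries to 12.7 to 14.7 times with CMR. PSMC2, which neighbours PSMC1 in the ring, had 309.8, 310.0 and 354 with CMR and 224, 211 and 230.4 in the control, a change of 0.55 ± 0.09 on the log2 scale (SE; edgeR adjusted p = 0.00241). The span of PSMC2 overlaps that of DNAJC2 on the opposite strand, which was itself called higher (1.08) and had 68.6% of the count of PSMC2. How many reads fell in the stretch that the 2 genes share was not measured, so reads of DNAJC2 could be part of the count of PSMC2.

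PSMC1, whose tail helps to open the gate of the core, had 229, 243 and 256 normalised CPM with CMR and 204, 198 and 206 in the control, no overlap, and was called higher (0.26 ± 0.08, edgeR adjusted p = 0.0289). This call held under 4 of 15 alternative settings, with an adjusted p of 0.182 under upper-quartile scaling. It was lost without CMR replicate 2 or 3 (adjusted p 0.0747 and 0.0529) and without control replicate 1, 2 or 3 (0.0897, 0.11 and 0.0773).

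PSMC3 had 259, 234 and 255 normalised CPM with CMR and 234, 238 and 246 in the control. PSMC5 had 123, 127 and 122 with CMR and 128, 129 and 121 in the control. PSMC6 had 93.9, 109 and 110.5 with CMR and 105, 109 and 90.2 in the control. In these 3 ATPases the groups overlapped, with log2 fold changes of 0.06 ± 0.08, -0.02 ± 0.07 and 0.04 ± 0.11 (edgeR adjusted p = 0.578, 0.828 and 0.811), and the sign for PSMC3 and PSMC6 turned under upper-quartile scaling, that for PSMC6 also without CMR replicate 3 or control replicate 3 (-0.01 and -0.04).

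Of the 7 alpha ring genes tested, 2 were called. PSMA5 had 164, 158 and 155 normalised CPM with CMR and 109, 115 and 108 in the control, a change of 0.52 ± 0.08 on the log2 scale (SE; edgeR adjusted p = 0.00181). The groups stood well apart, and the call held under all 15 alternative settings. PSMA6 had 158, 118 and 165 with CMR and 102, 111 and 110.4 in the control (0.45 ± 0.13, edgeR adjusted p = 0.0338). Here CMR replicate 2 was close to the control. The call held under 4 of 15 alternative settings. The adjusted p was 0.103 under upper-quartile scaling, 0.0888 and 0.0991 without CMR replicate 1 or 3, and 0.113, 0.0809 and 0.0803 without control replicate 1, 2 or 3. PSMA6 shares its span on the same strand with the locus AL121594, which had 18.7% of its count.

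The other alpha subunits were not called. PSMA4, whose tail closes the gate, had 225, 201 and 243 normalised CPM with CMR and 248, 277 and 248 in the control. It was lower in all 3 CMR libraries by a small margin (-0.21 ± 0.10, edgeR adjusted p = 0.135), and it passed as lower under upper-quartile scaling (0.0301). PSMA7 had 182, 155 and 151 with CMR and 187, 187 and 176 in the control (-0.17 ± 0.09, edgeR adjusted p = 0.197), and it passed as lower without CMR replicate 1 (0.0277) and under upper-quartile scaling (0.0485). The remaining alpha subunits, all part of the ring wall, differed by less. PSMA1 had 157, 162 and 147 with CMR and 150.5, 157 and 160.1 in the control. PSMA2 had 189, 181 and 176 with CMR and 187, 209.9 and 186 in the control. PSMA3 had 83.5, 89.4 and 92.8 with CMR and 90.03, 77.9 and 80.1 in the control. Their groups overlapped, with log2 fold changes of -0.01 ± 0.08, -0.10 ± 0.08 and 0.10 ± 0.09, of which the first turned sign when CMR replicate 3 or control replicate 2 or 3 was left out.

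In the beta ring the structural subunit PSMB1 was the 1 gene called higher. It had 316, 301 and 327 normalised CPM with CMR and 241, 243 and 254 in the control, no overlap, a change of 0.35 ± 0.07 on the log2 scale (SE; edgeR adjusted p = 0.00712). PSMB2 had 283, 281 and 314 with CMR and 250.55, 256 and 242 in the control and narrowly missed (0.23 ± 0.08, edgeR adjusted p = 0.0502); without CMR replicate 1 it passed, at 0.0479. PSMB3 had 95.2, 100.2 and 95.3 with CMR and 92.8, 94.5 and 76.3 in the control. PSMB4 had 231, 200.05 and 199 with CMR and 223, 212 and 213 in the control. PSMB3 was higher in each CMR library than in any control library by less than 1 unit at the closest pair, and PSMB4 overlapped (0.14 ± 0.11 and -0.04 ± 0.09, edgeR adjusted p = 0.34 and 0.727).

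The 3 catalytic subunits of the constitutive core were not called. PSMB5, which carries the chymotrypsin-like site that inhibitors such as bortezomib bind, had 68.6, 76.7 and 67.0 normalised CPM with CMR and 90.7, 70.2 and 84.4 in the control, overlapping groups (-0.21 ± 0.12, edgeR adjusted p = 0.219). PSMB6, with the caspase-like site, had 91.2, 79.1 and 85.5 with CMR and 75.2, 73.9 and 73.9 in the control (0.20 ± 0.09, edgeR adjusted p = 0.12). PSMB7, with the trypsin-like site, had 215, 191 and 206 with CMR and 173, 174 and 178 in the control (0.22 ± 0.08, edgeR adjusted p = 0.0577). PSMB6 and PSMB7 were higher in all 3 CMR libraries than in any control library, by a margin that did not pass the test.

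The immunoproteasome subunits, which interferon induces and which replace the catalytic subunits in new particles, were low in these cells. PSMB9 (ENSG00000240065, chromosome 6, 32844136 to 32859851, plus strand, GRCh38), which takes the place of PSMB6, had 3.07, 2.42 and 2.67 normalised CPM with CMR and 3.84, 5.32 and 4.75 in the control. All CMR libraries were below all control libraries, and PSMB9 was called lower, by 1.70-fold (-0.77 ± 0.21, edgeR adjusted p = 0.0247). The call rests on means of 2.72 ± 0.328 and 4.64 ± 0.745 and was lost without CMR replicate 2 or 3 (adjusted p 0.0806 and 0.0603) and without control replicate 2 or 3 (0.09 and 0.0712). PSMB9 also overlaps TAP1 and PSMB8 on the opposite strand, which had 1117 and 469% of its count, so that reads of these genes could enter its count if strand was not used. TAP1 was not called (-0.10).

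PSMB8 (ENSG00000204264, chromosome 6, 32840717 to 32844703, minus strand, GRCh38), which replaces PSMB5, had 15.3, 17.2 and 14.9 normalised CPM with CMR and 17.8, 19.4 and 17.6 in the control, lower in each CMR library but not called (-0.21 ± 0.12, edgeR adjusted p = 0.225). PSMB10, which replaces PSMB7, had 3.98, 2.26 and 2.10 with CMR and 4.62, 3.11 and 2.52 in the control, overlapping groups (-0.30 ± 0.34, edgeR adjusted p = 0.541). The log2 fold change of PSMB10 ran from -0.65 without CMR replicate 1, the highest CMR library, to -0.01 without control replicate 1, and was -0.17 and -0.13 without CMR replicate 2 or 3 and -0.47 without control replicate 3. It shares its span on the same strand with the locus AC040162, which had a higher count than PSMB10 itself.

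Set against the subunit each replaces, the immunoproteasome subunits stood at a small percentage of the constitutive level in FPKM. PSMB8 was at 11.2, 11.3 and 11.2% of PSMB5 with CMR and at 9.88, 13.9 and 10.5% in the control. PSMB9 was at 1.44, 1.32 and 1.34% of PSMB6 with CMR and at 2.20, 3.10 and 2.77% in the control. PSMB10 was at 2.03, 1.29 and 1.10% of PSMB7 with CMR and at 2.91, 1.94 and 1.53% in the control. Of the 3 ratios, that of PSMB9 to PSMB6 did not overlap between groups, with a log2 difference of -0.96 and an exact two-sided permutation p of 0.1, the smallest that 3 against 3 libraries can give (0.3 after adjustment over the 3 ratios). For PSMB10 to PSMB7 the log2 difference was -0.53 (exact p = 0.3, adjusted 0.45), and with 1 library left out it ran from -0.78 (CMR replicate 1) to -0.27 (control replicate 1). The difference for PSMB8 to PSMB5 was -0.01 (exact p = 1, adjusted 1).

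**Figure D5:**
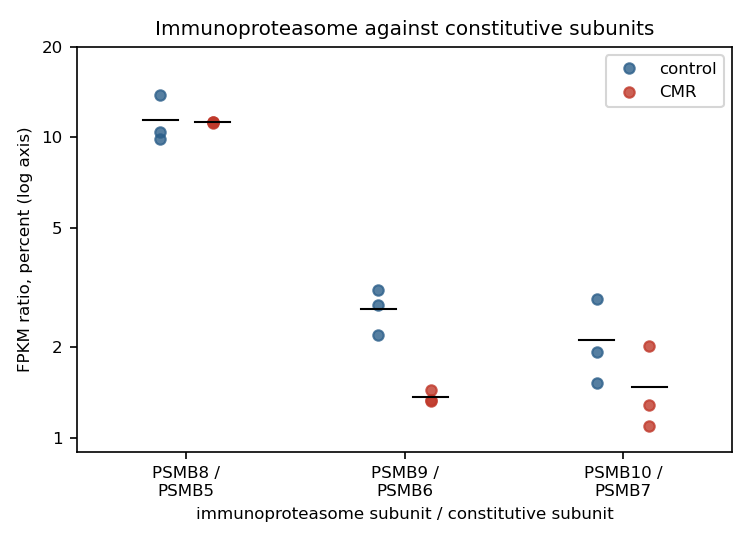
FPKM of each immunoproteasome subunit as a percentage of the constitutive subunit it replaces (vertical log axis), 1 point per library with the mean of 3 as a bar, for the 3 pairs (horizontal axis). The CMR points of PSMB9 over PSMB6 (1.32 to 1.44%) lie below the control points (2.20 to 3.10%), and the other pairs overlap.

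Of the 3 chaperones that assemble the base, 2 were called higher. PSMD9 (ENSG00000110801, chromosome 12, 121888731 to 121918297, plus strand, GRCh38), which binds PSMC3 and PSMC6 before they join the ring, had 64.9, 61.4 and 73.7 normalised CPM with CMR and 31.9, 34.0 and 32.9 in the control. The lowest CMR library was above the highest control library by a wide gap, and the change was 2.02-fold (1.02 ± 0.11, edgeR adjusted p = 4.9e-04), although neither PSMC3 nor PSMC6 was called. PSMD5, the chaperone of PSMC1 and PSMC2, had 109, 131 and 137 with CMR and 89.3, 94.8 and 91.5 in the control and rose by 0.45 ± 0.11 (edgeR adjusted p = 0.0139; 0.0569 without control replicate 1). PSMD10, or gankyrin, the chaperone of PSMC4 and PSMC5, had 109.9, 109.6 and 113 with CMR and 113, 88.5 and 89.1 in the control, where replicate 1 reached the CMR level, and was not called (0.20 ± 0.11, edgeR adjusted p = 0.221).

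The chaperones of the core work as pairs, PSMG1 with PSMG2 and PSMG3 with PSMG4, to build the alpha ring. PSMG1 had 85.9, 88.0 and 84.4 normalised CPM with CMR and 70.2, 67.2 and 67.2 in the control and was called higher (0.34 ± 0.08, edgeR adjusted p = 0.0135), a call lost without control replicate 2 or 3 (0.059 and 0.0571). Its partner PSMG2 had 35.8, 37.4 and 38.0 with CMR and 34.5, 32.0 and 30.4 in the control, no overlap but not called (0.20 ± 0.10, edgeR adjusted p = 0.169). PSMG2 lies on the opposite strand of SPIRE1 and CEP76, which had 589% and 59.9% of its count and were both called higher, so its value is uncertain. PSMG3 had 26.7, 35.8 and 40.2 with CMR and 34.0, 34.2 and 24.6 in the control. Its partner PSMG4 had 7.07, 6.38 and 5.54 with CMR and 7.57, 8.68 and 6.37 in the control. For both genes the groups overlapped (0.15 ± 0.20 and -0.25 ± 0.18, edgeR adjusted p = 0.594 and 0.33). In the control PSMG4 was the lowest of the tested genes in FPKM, but PSMB9 and PSMB10 were lower in normalised CPM.

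Among the alternative caps of the core, PSME4, the activator linked to histone degradation, was called higher. It had 266, 309 and 327 normalised CPM with CMR and 237, 244 and 241 in the control (0.32 ± 0.09, edgeR adjusted p = 0.0288). The call held under 6 of 15 alternative settings. It was lost under upper-quartile scaling (adjusted p 0.122), without CMR replicate 2 or 3 (0.0872 and 0.0632) and without control replicate 1, 2 or 3 (0.0962, 0.0809 and 0.083). PSME1 and PSME2 form the activator that interferon induces. PSME1 had 39.3, 35.7 and 32.6 with CMR and 39.5, 45.4 and 40.3 in the control, and PSME2 had 72.2, 65.1 and 63.9 and 75.5, 70.9 and 72.4. PSME1 was lower in each CMR library, PSME2 overlapped, and neither was called (-0.22 ± 0.12 and -0.12 ± 0.09, edgeR adjusted p = 0.186 and 0.336).

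PSME3, the nuclear activator, had 159, 162 and 164 normalised CPM with CMR and 169, 66.7 and 157 in the control. Control replicate 2 was far below every other library, with 3536 counts against 8827 and 10264 in the other control libraries, and the log2 fold change of 0.31 ± 0.31 (edgeR adjusted p = 0.48) became -0.01 (adjusted p 0.964) without it. PSMF1, the proteasome inhibitor of this family, had 121, 115 and 117 with CMR and 106, 96.1 and 101 in the control, no overlap but not called (0.22 ± 0.08, edgeR adjusted p = 0.0679).

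The promoters of these genes were read from RefSeq (GRCh38.p14), as the 250 bases before to 50 after each annotated start; 51 such windows matched 42 of the genes. PSMA7, PSMB1, PSMB6, PSMB7, PSMD4 and PSMG3 had no window. Both strands were searched for the antioxidant response element TGACNNNGC, the site that NFE2L1 and NFE2L2 bind together with small MAF proteins. It was present in 15 of the 51 windows (29.4%), against 13.3% of all 35116 promoter windows of the same length. The matches of PSMC4, PSMD9, PSMD12 and PSMD3, the first 3 being the genes with the largest rise, and of PSMB9, which fell, are printed from the strand of the gene with the match in capitals.

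PSMC4 promoter, chr19:39971182-39971210, plus strand: acagaggccgGCTTGGTCActatggagga

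PSMD9 promoter, chr12:121888616-121888721, plus strand: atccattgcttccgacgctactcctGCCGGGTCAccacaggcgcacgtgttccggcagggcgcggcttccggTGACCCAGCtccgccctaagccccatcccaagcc

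PSMD12 promoter, chr17:67366709-67366767, minus strand: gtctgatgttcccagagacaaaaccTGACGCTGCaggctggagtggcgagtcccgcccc

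PSMD3 promoter, chr17:39980745-39980803, plus strand: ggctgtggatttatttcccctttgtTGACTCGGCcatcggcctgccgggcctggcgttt

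PSMB9 promoter, chr6:32854019-32854077, plus strand: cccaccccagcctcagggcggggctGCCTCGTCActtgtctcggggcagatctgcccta

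The match of PSMC4 lay 28 to 36 bases after the start, those of PSMD9 between 149 and 94 bases before it, that of PSMD12 from 165 to 157 before it, the one printed for PSMD3 from 37 to 29 before it, and that of PSMB9 from 148 to 140 before it. The PSMB9 window, chr6:32853942-32854241, lies inside the span given above for the gene, as the RefSeq start differs from the deposited one. The overlaps of PSMB9 with TAP1 and PSMB8 were taken from the deposited span. Of the 15 tested genes with the element, 7 were called higher, 1 lower and 7 not, with a median log2 fold change of 0.20. Of the 25 tested genes with a window and no match, 9 were called higher, 1 lower and 15 not, also with a median of 0.20. The medians with and without the element were thus equal to 2 decimals.

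A core of the interferon-stimulated response element, the letters GAAA, 2 bases of any kind and GAAA again on either strand, was present in 7 of the 51 windows (13.7%), against 3.57% of all windows. These were the windows of PSMB8, PSMB10, PSME1 and PSME2, all genes that interferon induces, and of PSMA4, PSMB4 and PSMG4. The matches of the first 4 are printed in the same way.

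PSMB8 promoter, chr6:32844032-32844061, minus strand: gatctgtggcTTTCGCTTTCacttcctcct

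PSMB10 promoter, chr16:67936851-67936896, minus strand: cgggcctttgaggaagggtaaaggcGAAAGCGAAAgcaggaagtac

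PSME1 promoter, chr14:24136189-24136218, plus strand: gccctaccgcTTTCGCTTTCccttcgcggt

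PSME2 promoter, chr14:24146611-24146663, minus strand: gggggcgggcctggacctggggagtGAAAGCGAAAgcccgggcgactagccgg

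All 7 genes with this match were not called, and all 7 log2 fold changes were below 0, with a median of -0.21. Of the 33 tested genes with a window and no match, 16 were called higher, 2 lower and 15 not, with a median of 0.23. The CCAAT box, a common promoter motif, was in 39.2% of the proteasome windows and 34.6% of all windows; 8 of 19 genes with it and 8 of 21 without it were called higher. A match of letters is a description of the sequence and not evidence of binding.

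Proteins that bind the proteasome or edit the chains on its substrates were listed alongside. Of 11 such genes, 7 were called higher and 4 were not called, with a median log2 fold change of 0.33, against 20.5% called higher, 18.1% called lower and a median of -0.01 over all tested genes. Over those averaging 5 FPKM or more, 32.5% were called higher and 24.1% lower, with a median of 0.06. The largest changes were those of TXNL1, a thioredoxin-like protein of the lid (1.88-fold), the deubiquitinases USP14 (1.81-fold) and UCHL5 (1.66-fold), and AKIRIN2, which carries proteasomes into the nucleus (1.61-fold). POMP, the maturation factor of the core (0.23, edgeR adjusted p = 0.0704), and ADRM1, a ubiquitin receptor of the base (0.11), were not called.

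The list for the control of NFE2L1, which holds its relatives, its processing and degradation factors and its dimer partners, had 10 of 15 genes called higher and 1 lower, with a median of 0.79. Over all tested genes 20.5% were called higher and 18.1% lower, and over those averaging 5 FPKM or more 32.5 and 24.1%. CEBPB, a transcription factor that dimerises with other leucine zippers (4.33-fold), the ubiquitin ligase of the endoplasmic reticulum SYVN1 (4.29-fold), its partner SEL1L (3.37-fold) and the dimer partner MAFG (3.37-fold) changed most. NFE2L1 itself was not called (0.23, edgeR adjusted p = 0.114), NFE2L2 was called 1.73-fold higher, and NFE2L3 was called lower (-0.44). DDI2 and NGLY1, the protease and the glycanase that process NFE2L1, were not called. RNA levels do not show the processing of NFE2L1, which was not measured here.

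Genes upstream of the proteasome were counted in the same way. The shares to set beside them are again 20.5% called higher and 18.1% lower over all tested genes, and 32.5 and 24.1% over the abundant ones. Of 19 genes for the segregase VCP and its cofactors, 13 were called higher and 6 were not called, with a median of 0.56; DERL1 (2.49-fold), ZFAND1 (2.14-fold), VCPIP1 (1.94-fold) and UBXN7 (1.89-fold) changed most, and VCP itself was not called (0.17). Of 13 shuttle receptors and related factors, 7 were called higher and 1 lower, with a median of 0.35. The autophagy receptor SQSTM1 (4.39-fold) and ZFAND2A, an arsenite-inducible partner of the proteasome (3.80-fold), changed most, followed by UBL4A (-0.61, called lower) and GET4 (1.44-fold), which work together in delivering membrane proteins. Of the enzymes that activate ubiquitin, UBA6 was called higher (2.47-fold) and UBA1 was called lower (-0.45 on the log2 scale).

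Genes for interferon signalling and antigen processing, which control or work with the immunoproteasome, were called in both directions. STAT2 (0.99 on the log2 scale) and the receptor chain IFNGR1 (0.84) were higher. The peptide loading factor TAPBP (-0.73), the peptidase ERAP2 (-0.71), the transporter chain TAP2 (-0.69) and the receptor chain IFNGR2 (-0.54) were lower.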

How the data were processed

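The 3 CMR and 3 control libraries were read from both ends after selection with poly-T beads, per the labels' protocols. These also name an adipose source, which does not match the cell line, and fragments of RNA with or without a poly(A) tail, so the selection is not certain. The deposited table holds, per the file headers, whole-number counts and FPKM for each gene. The authors' counts are without normalization, and whether they tallied reads or rounded an estimate is not given in the sources used here. Gene length and library size are divided out of the authors' FPKM values, with 0.0001 listed for no count. Bowtie 0.12.2, HISAT2 2.0, StringTie 1.3.0 and the mouse build mm8 stand in the submitters' processing notes. The table's identifiers are nonetheless human: all 48 members overlap their span in GENCODE release 29 (GRCh38), and 14 have the same ends.

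Counts were tested with edgeR 4.0.16 (R 4.3.3) over 19200 of 31368 genes with a count: filterByExpr (minimum count 10, total 15), TMM scaling, quasi-likelihood test, Benjamini-Hochberg adjustment, 3 libraries against 3, no covariate. Normalised CPM uses the same factors. Ratios of FPKM were tested by exact permutation. The test was checked on simulated counts in which few genes were changed, evenly in both directions, so that check does not bear on the scaling of these data. Library totals, 51147268 to 70129221 counts, and 3 libraries a group set the precision. Alternatives were 3 other scalings, no filter, a filter at 1 FPKM, DESeq2 1.42.0, limma 3.58.1 on log2(FPKM + 1) and log2(FPKM + 0.1), the replicate number as a block, and leaving out each library. Members and lists were chosen with earlier results of these data known. By the naming rule, every member could be named, with library values for catalytic subunits, the 3 largest calls per role and members not called or called against their role's majority, and up to 4 called genes per list with the largest change; other list genes and the neighbours of PSMC4 were picked after their values were seen. Figures were drawn with matplotlib 3.10.9, and sequencing reads were not used here. The counts over the lists for ubiquitin and for interferon signalling are not reported here.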

Additional observations from a re-analysis of the deposited data

How the results depend on the processing

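The number of proteasome genes called higher, 18, stayed within 12 to 18 under all alternatives run, and the number called lower, 2, became 4 under upper-quartile scaling, 1 with no filter on low counts and 1 with a filter at 1 FPKM, and 0 to 3 with 1 library left out. With the replicate number as a block, 14 were called higher and 0 lower by edgeR (2 lower at an unadjusted p under 0.05, and 2 lower by DESeq2 without the block). Same-numbered libraries deviated together by correlations of 0.078, 0.075 and 0.060, all under 0.1, so the numbers were not taken as pairs, although each library correlated best with its own number. Under the block PSMB9 (adjusted p 0.064), PSMD2 (0.0678), PSMA6 (0.0583), PSMC1 (0.0577), PSMD4 (0.0682) and PSMD8 (0.0864) were no longer called.

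Of the 20 called genes, 11 kept their call under all 15 alternatives: PSMA5, PSMB1, PSMC2, PSMC4, PSMD3, PSMD6, PSMD7, PSMD9, PSMD12, PSMD13 and PSMD14. Upper-quartile scaling moved the median of all genes by -0.13, the share called higher among called genes from 53.1% to 42.9%, and the number of proteasome genes called higher to 12; their median relative to all genes stayed at 0.21. The lid had 6 or 7 of 8 genes called higher, with all 8 positive, under each alternative. Under upper-quartile scaling the medians of lid, base and constitutive core were 0.38, -0.07 and -0.01, and relative to all genes they were 0.52, 0.07 and 0.13, as in the reported fit.

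PSMA3 was at -0.030, PSMC3 at -0.070 and PSMC6 at -0.092 under upper-quartile scaling, PSMC3 at -0.013 and PSMC6 at -0.035 without a composition factor, and PSMC6 at -0.0047 with a filter at 1 FPKM. With limma, PSMC3 was at -0.019 with either pseudocount and PSMC6 at -0.034 with 1 and -0.037 with 0.1. With 1 library left out, PSMA1 ran from -0.035 to 0.026, PSMC6 from -0.039 to 0.10 and PSME3 from -0.0077 to 0.53. The log2 difference of PSMB8 to PSMB5 was 0.043 with a pseudocount of 1 FPKM and ran from -0.10 to 0.14 with 1 library left out. Upper-quartile scaling and the omission of the composition factor shifted the median of all genes by -0.13 and -0.07, and the named genes moved by about as much; the cause of the other turns was not tested.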
